A study of Mus musculus with 4 samples.

Results

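Fatty acid desaturases and elongases are the enzymes that add double bonds to fatty acyl chains and lengthen them. Here they are 10 genes, 5 desaturases (Scd1, Scd2, Fads1, Fads2 and Fads3) and 5 elongases (Elovl1, Elovl4, Elovl5, Elovl6 and Elovl7), out of 18193 genes measured. They were chosen by name: every probe set whose platform annotation named a member was taken, which gave 30 of the 45101 probe sets, 13 for desaturases and 17 for elongases. For each gene the brightest probe set, by its mean over the 4 arrays, is reported and the others are given beside it.

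The 4 arrays were made from K7M2, a mouse osteosarcoma line that metastasises readily, grown in medium with 10% fetal bovine serum. On 1 array the cells over-expressed GFP alone, and on the other 3 (replicates 1, 2 and 3) they over-expressed ezrinT567A-GFP. Ezrin anchors the cortical actin network at the cell membrane, and T567A puts an alanine, which takes no phosphate, in place of its regulatory threonine. Nothing in the labels says whether the replicates were separate cultures, or whether each line was a pool or 1 clone, and no promoter is named, so the spread behind every p-value here is that of the arrays and may be technical.

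Stearoyl-CoA desaturases, encoded by the Scd genes, make oleate and palmitoleate from saturated chains and so set the ratio of monounsaturated to saturated lipid in membranes. Of the Fads genes, Fads1 and Fads2 encode front-end desaturases that act on the path from dietary essential fatty acids to more unsaturated ones such as arachidonate. Elovl enzymes catalyse the condensation step of each elongation cycle and differ in the chains they accept. Several genes of both kinds are known targets of SREBP-1 and LXR, the transcription factors of lipid synthesis.

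All values are RMA levels on the log2 scale, and a difference is the ezrinT567A-GFP mean minus GFP unless 1 array is named. The arrays had medians between 3.85 and 3.89 over all probe sets, and the median gene differed by 0.03. Ezr itself was 8.90 in GFP and 8.91 in ezrinT567A-GFP by its brightest probe set, which need not lie in the transgene. Of 7 osteoblast-lineage genes analysed, 5 lay above the median gene on every array, with Col1a1 between 11.2 and 11.4, while Alpl (3.36 to 4.02) lay below it and Ibsp (2.74 to 2.88) below the lower quartile. Technical readouts and keratinocyte markers moved with the groups. The mean of the hybridization spike-ins was 9.32 on the GFP array, and 10.1, 11.1 and 10.4 on the ezrinT567A-GFP arrays in replicate order. The 3' minus 5' control signal, a readout of RNA integrity, was 0.23 for actin in GFP against 0.31 to 0.43, and -0.27 for Gapdh against -0.24 to -0.18, so higher in all 3 arrays for both. Replicate 2 stood apart in the mean of the 18S rRNA controls, at 11.3 beside 7.65 and 7.76 on the other ezrinT567A-GFP arrays, with GFP at 9.09. Of 7 keratinocyte and sebocyte markers analysed, Krt5 (-2.05), Krt17 (-2.54), Perp (-2.79) and Krt14 (-2.80, probe sets -2.80 to 0.08) were lower in all 3 arrays. By their means, these differences were over 2 log2 units. Trp63 was at -0.31, Mc5r at -0.04 and Krt15 at -0.01, each below the median gene on every array. The log2 of the summed level of the 7 was 8.44 in GFP and 6.30 to 6.62 in ezrinT567A-GFP. In such bulk samples fewer cells of a type and less RNA per cell cannot be told apart. Of 7 adipocyte markers 1 at most lay above the median gene on any array (log2 of the summed level 6.35 to 6.46). Of 7 macrophage markers the growth factor receptor gene Csf1r (11.9 to 12.2) did so, with the leukocyte marker Ptprc near the bottom at 2.10 to 2.22.

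All 5 desaturases were higher in ezrinT567A-GFP, in each of the 3 arrays, by 0.76 to 1.34, with a median of 0.94. The elongases were split: Elovl1 and Elovl6 were higher in all 3 arrays by 0.47 and 0.40, Elovl4 and Elovl5 lay on both sides of GFP, and the dim Elovl7 was lower in all 3. Among all genes, 32.5% lay above GFP in all 3 arrays, 25.6% below it in all 3, and 42% on neither side throughout. Scd2 and Fads1 were at least 2-fold higher, as were 0.973% of all genes. None of the 10 passed limma's test over all genes: 0 had an adjusted p under 0.05, the same as over all genes (0%). At an unadjusted p under 0.05 there were 6 higher members (all 5 desaturases and Elovl6), where 7.46% of all genes were higher, and 1 lower member (Elovl7), where 6.5% were lower.

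**Figure D1:**
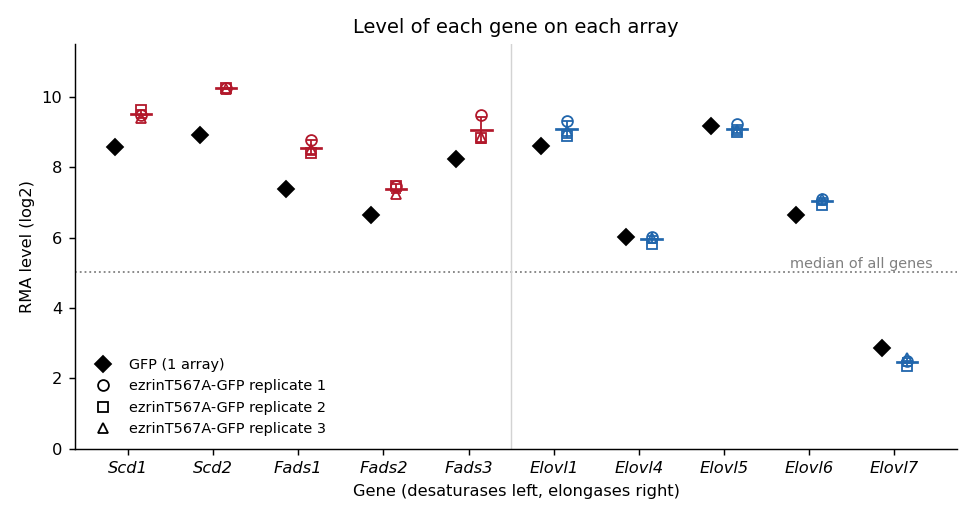
RMA level (log2) of each gene's brightest probe set on each array. The filled diamond is the single GFP array, open symbols are ezrinT567A-GFP replicates 1 to 3, and the bar with whiskers is their mean and SD (n = 3); the dotted line is the median of all genes. The 5 desaturases on the left lie above their GFP diamond in all 3 arrays, and Elovl4 and Elovl5 straddle it.

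Scd2, the stearoyl-CoA desaturase best known from brain and embryonic skin, had the largest difference. Its level was 8.90 in GFP and 10.3, 10.2 and 10.2 in replicates 1, 2 and 3, so the arrays lay close together and well above GFP. The difference was 1.34 (SE 0.09, 95% interval 1.10 to 1.58), or 2.53-fold, with limma adjusted p = 0.146. Only 7 genes of 18193 had a smaller p in that fit. The other 2 Scd2 probe sets gave 1.57 (SE 0.12) and 1.36 (SE 0.14), also with all 3 arrays above GFP.

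Scd1, the isoform of liver, fat and skin sebaceous glands, was 8.57 in GFP and 9.49, 9.62 and 9.40 in the 3 replicates. The nearest replicate lay 0.83 above GFP, and the difference was 0.94 (SE 0.13, 95% interval 0.59 to 1.28; limma adjusted p = 0.187). Its dimmer probe set gave 0.56 (SE 0.16), from 7.22 in GFP to 7.96, 7.70 and 7.70. For Scd1, the size of the difference therefore varied with the probe set while its side did not.

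Fads1 makes arachidonate and eicosapentaenoate from their precursors. It was 7.37 in GFP and 8.78, 8.39 and 8.50 in replicates 1, 2 and 3. These arrays lay above GFP without overlap, by 1.19 on average (SE 0.19, 95% interval 0.672 to 1.702; 2.28-fold; limma adjusted p = 0.210). A further Fads1 probe set was dim, at 3.70 in GFP and 3.93 to 3.98 in the replicates, and gave 0.26 (SE 0.11). With the mean of both probe sets Fads1 was higher by 0.72, under 2-fold.

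Fads2 encodes the enzyme of the initial desaturation step on linoleate and alpha-linolenate. Its level was 6.63 in GFP and 7.48, 7.46 and 7.24 in the replicates. The replicates lay above GFP by 0.76 (SE 0.15, 95% interval 0.34 to 1.17; limma adjusted p = 0.234). Its other 2 probe sets agreed closely in size, at 0.81 (SE 0.22) and 0.91 (SE 0.26).

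Fads3 is the remaining member of that family, with a less settled range of substrates. It was 8.23 in GFP and 9.47, 8.83 and 8.86 in replicates 1, 2 and 3, so replicate 1 stood higher than the other two. The difference of 0.83 (SE 0.30, 95% interval 0.0066 to 1.65; limma adjusted p = 0.355) was the least precise of the 5 desaturases, and it was 0.62 without replicate 1. Its other probe sets gave 0.37 (SE 0.21) and 0.40 (SE 0.41), and in the latter replicate 2 (5.24) lay below GFP (5.33).

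Among the elongases, Elovl6, which lengthens palmitate to stearate and so supplies the substrate of the Scd enzymes, was 6.63 in GFP and 7.09, 6.91 and 7.09 in the replicates. The 3 arrays lay above GFP by 0.40 (SE 0.14, 95% interval 0.03 to 0.77; limma adjusted p = 0.335). A second Elovl6 probe set gave 0.51 (SE 0.19), and the remaining one, dim at 3.30 in GFP, gave 0.03 (SE 0.12).

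Elovl1, which makes the very long saturated and monounsaturated chains of sphingolipids, was 8.60 in GFP and 9.32, 8.87 and 9.02 in the replicates. Its difference of 0.47 (SE 0.21, 95% interval -0.09 to 1.03; limma adjusted p = 0.413) was about as large as that of Elovl6 but less even, with replicate 1 the highest. The other 3 probe sets gave 0.38 (SE 0.25), 0.26 (SE 0.25) and 0.40 (SE 0.47), the last being dim with replicate 2 below GFP. All 4 are of the _x_at or _a_at kinds, whose probes can match other transcripts or several transcripts of 1 gene.

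Elovl5, the elongase of polyunsaturated chains, works between the steps of Fads2 and Fads1. Its level was 9.17 in GFP and 9.22, 8.9996 and 9.05 in the replicates. These overlapped GFP, with a difference of -0.08 (SE 0.13, limma adjusted p = 0.851) and a 95% interval of -0.43 to 0.28. A change of the size seen in Fads1 or Fads2 lies outside that interval, while changes between its bounds, in either direction, do not. The second probe set gave -0.12 (SE 0.20).

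Elovl4, which builds the longest chains of retina, brain and skin, was 6.01 in GFP and 6.03, 5.83 and 5.99 in the replicates. The groups overlapped, at -0.06 (SE 0.14, 95% interval -0.45 to 0.32; limma adjusted p = 0.888), and the second probe set gave -0.11 (SE 0.24).

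Elovl7, an elongase of saturated chains, was 2.86 in GFP and 2.48, 2.34 and 2.57 in the replicates, lower by -0.39 (SE 0.13, limma adjusted p = 0.315). Its level lay below the lower quartile of all genes (3.15), a range in which background and expression were not told apart here. Of its 6 probe sets, 4 were lower and 2 higher by their means, between -0.39 and 0.16, so the direction depended on the probe set.

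**Figure D2:**
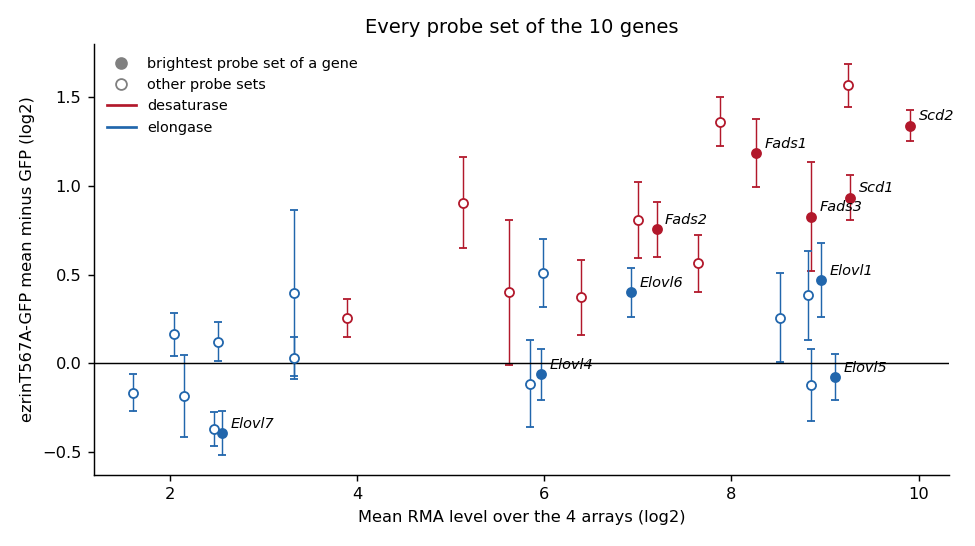
Difference (ezrinT567A-GFP mean minus GFP, log2) of all 30 probe sets against their mean RMA level over the 4 arrays. Filled points are the brightest probe set of a gene, open points the others, red desaturases and blue elongases; whiskers are limma's SE. All 13 desaturase probe sets lie above 0, and the 17 elongase probe sets lie on both sides.

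Counted over every probe set, 13 of 13 desaturase probe sets were higher by their means and 12 of them in all 3 arrays, where 30.2% of all 34945 probe sets naming 1 gene lay above GFP in all 3 and 26.3% below. Of the 17 elongase probe sets, 9 were higher and 8 lower by their means, with 7 above GFP in all 3 arrays and 3 below. At least 2-fold higher were 4 desaturase probe sets (3 of Scd2 and 1 of Fads1) and 0 elongase probe sets, against 0.735% of all probe sets. Probe sets of 1 gene share its transcripts and are not replicates. In limma's fit over all probe sets 0 of the 30 had an adjusted p under 0.05, as over all probe sets (0%). At an unadjusted p under 0.05 there were 10 higher ones (9 of them for desaturases), against 6.14% of all probe sets, and 2 lower ones, both of Elovl7, against 6.23%.

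Desaturation and elongation steps were then set side by side within each array. The median desaturase lay 1.24, 1.02 and 0.83 above GFP in replicates 1, 2 and 3, while the median elongase lay at 0.05, -0.17 and -0.02. The gap between these medians was 1.19, 1.18 and 0.85, or 1.08 ± 0.19 (SD, n = 3 arrays that share the GFP array). Taken instead between the medians of the genes' mean differences, 0.94 and -0.06, it was 0.997. In every array the lowest desaturase lay above the highest elongase. In replicate 1 Fads2 at 0.84 stood above Elovl1 at 0.72, in replicate 2 Fads3 at 0.61 above Elovl6 at 0.29, and in replicate 3 Fads2 at 0.60 above Elovl6 at 0.46. The margin was thus narrow in replicates 1 and 3, at 0.12 and 0.14, and 0.32 in replicate 2. It did not hold beyond the members. The elongase Elovl3 lay 1.05, 0.60 and 0.68 above GFP in replicates 1, 2 and 3, so above Fads2 in replicates 1 and 3. The elongase Elovl2 (0.08) and the desaturases Scd3 (0.10) and Fads6 (0.0020) differed little by their means. Each of these genes was below the median gene on every array. No p is given for the gap between the medians, since the genes were chosen with results known. With 1 array against 3, the smallest exact permutation p is 0.25. The spike-ins were highest in replicate 2 and the desaturase median in replicate 1, and all 3 arrays had more spike-in signal than GFP. The part of the spike-ins, that of the 3' minus 5' signal and that of the keratinocyte markers in these differences was not tested.

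**Figure D3:**
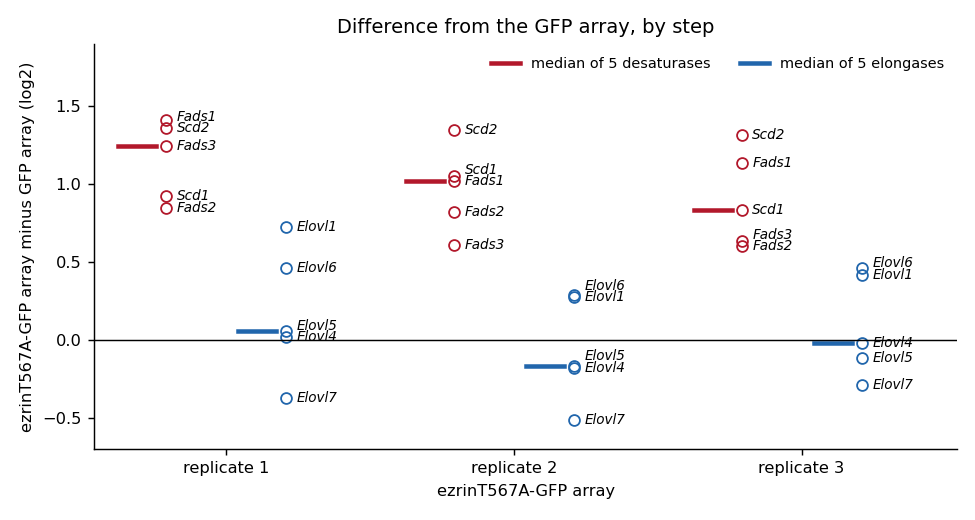
Difference of each ezrinT567A-GFP array from the GFP array (log2) for each gene, desaturases in red and elongases in blue; short bars are the medians of 5 genes. In each replicate every desaturase lies above every elongase, with medians of 1.24, 1.02 and 0.83 against 0.05, -0.17 and -0.02.

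All 5 desaturases lie on chromosome 19, in 2 blocks, whereas the elongases lie on chromosomes 3, 4, 9 and 13, with Elovl4 and Elovl5 both on 9. The 349 genes of chromosome 19 whose mean level lay above that of the median gene had a median difference of 0.08. Of them 43.8% lay above GFP in all 3 arrays. For such genes of chromosomes 3, 4, 9 and 13 the share was 30.9%, 38.4%, 25.2% and 30.9%. Their medians were -0.01, 0.08, -0.04 and 0.01. The part of the chromosome in the gap between the steps was not tested. In the Fads block, the order is Fads3, Fads2, Fads1 with no other analysed gene between them. The 8 nearest analysed genes on each side had a median of -0.01, from -0.37 to 0.45 (Asrgl1), and 3 of 16 lay above GFP in all 3 arrays. Fen1, a replication nuclease gene next to Fads1, was -0.09 (SE 0.22). Around the Scd genes, the 16 flanking genes had a median of 0.10, from -0.46 to 0.40 (Dnmbp), with 5 of 16 above GFP in all 3 arrays. In neither block was a flanking gene 2-fold higher, where 0.973% of all genes were. Above GFP in all 3 arrays were 32.5% of all genes. Scd3, which lies beside Scd2, differed by 0.10 (SE 0.13) at a level of 4.65 in GFP, and its other probe set by -0.35.

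**Figure D4:**
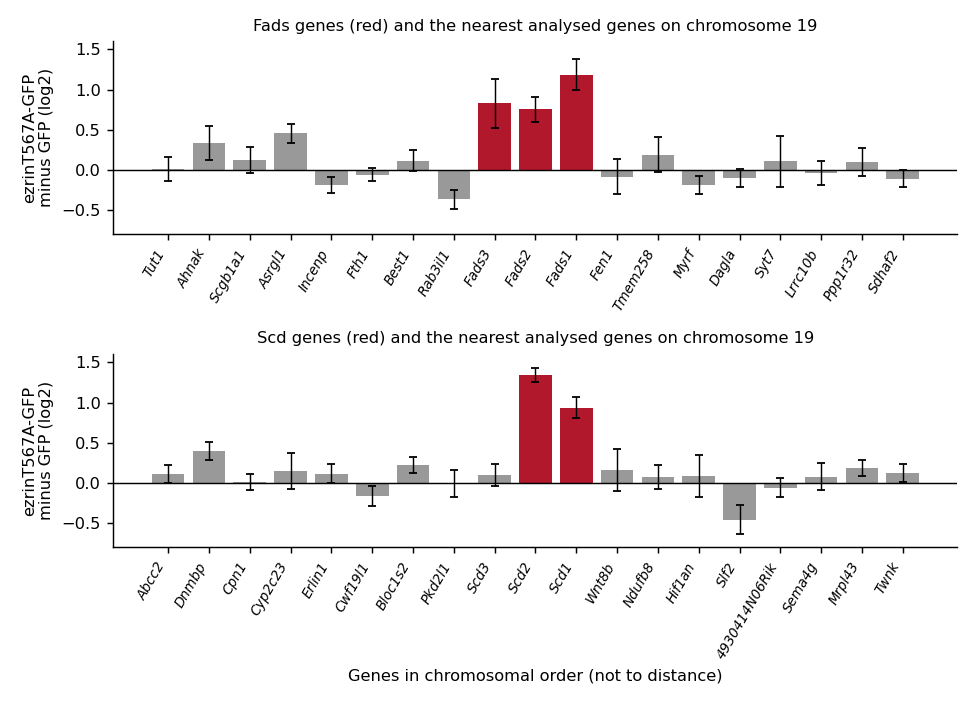
Difference (ezrinT567A-GFP mean minus GFP, log2; whiskers are limma's SE) of the Fads and Scd genes, in red, and of the 8 nearest analysed genes on each side with Scd3, in grey, in chromosomal order but not to distance. The 5 red bars run from 0.76 to 1.34 and the grey ones from -0.46 to 0.45.

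Promoter sequences from RefSeq on GRCm38.p6, from 250 bases before to 50 bases after the gene start, matched 7 of the 10 genes with 8 promoters, all but Scd1, Scd2 and Fads1. The promoters of Fads2 and Fads3, both higher in the 3 arrays, are shown with that of Elovl5, which overlapped GFP, to set a pair of desaturase genes beside an elongase gene of the same pathway. Capitals mark CCAAT or its reverse complement ATTGG, the core of the NF-Y box, and the E-box CACGTG. Fads2 is on the minus strand at chr19:10101454-10101753, Fads3 on the plus strand at chr19:10041298-10041597 and Elovl5 on the plus strand at chr9:77917115-77917414.
Fads2: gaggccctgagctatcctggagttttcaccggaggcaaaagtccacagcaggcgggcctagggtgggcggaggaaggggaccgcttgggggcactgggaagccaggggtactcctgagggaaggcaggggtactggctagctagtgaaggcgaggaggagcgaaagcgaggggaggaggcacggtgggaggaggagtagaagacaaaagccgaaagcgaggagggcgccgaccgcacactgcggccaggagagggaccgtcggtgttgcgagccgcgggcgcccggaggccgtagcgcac
Fads3: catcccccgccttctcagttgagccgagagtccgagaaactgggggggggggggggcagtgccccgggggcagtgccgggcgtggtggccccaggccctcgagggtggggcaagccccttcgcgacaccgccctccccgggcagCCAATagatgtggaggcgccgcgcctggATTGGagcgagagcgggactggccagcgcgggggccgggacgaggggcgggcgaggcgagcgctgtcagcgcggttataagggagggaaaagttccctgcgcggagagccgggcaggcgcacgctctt
Elovl5: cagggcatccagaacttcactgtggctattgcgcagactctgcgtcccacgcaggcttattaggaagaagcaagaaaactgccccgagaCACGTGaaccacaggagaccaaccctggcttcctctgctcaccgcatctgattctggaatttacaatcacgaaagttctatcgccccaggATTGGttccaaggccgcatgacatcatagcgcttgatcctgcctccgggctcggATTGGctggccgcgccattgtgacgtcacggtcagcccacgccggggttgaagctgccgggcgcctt
The Fads3 promoter holds CCAAT on the plus strand from 106 bases before the gene start and its reverse from 78 bases before. The Elovl5 promoter holds the reverse from 71 and from 17 bases before the start and CACGTG from 161 bases before, and the Fads2 promoter holds none of the motifs searched.

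Over the 8 promoters, CCAAT on either strand was found in 4 (Fads3, Elovl1, Elovl4 and Elovl5), against 37.4% of all 32851 promoters of the table. CACGTG was found in 2 (Elovl4 and Elovl5), against 7.15%. The sterol response element letters TCACNCCAC and the LXR repeat (AGGTCA, any 4 bases, AGGTCA) were searched on both strands too and found in 0 of the 8, against 1.24% and 0.0152% of all promoters. CCAAT was thus found in promoters of genes that were higher and of genes that were not. These are letter matches in a short window, and other spellings of these elements were not searched.

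Other enzymes of the family were mixed. Of 6 further desaturases and elongases, 4 were higher by their means and 2 lower, where 56.1% of all genes were higher, with a median of 0.04, against 0.03 for all genes. Elovl3, an elongase of brown fat and sebaceous glands, was 3.63 in GFP and 4.68, 4.23 and 4.31 in the replicates, higher by 0.78 (SE 0.22, limma adjusted p = 0.287) but below the median gene on every array. Degs1, which desaturates dihydroceramide rather than fatty acyl-CoA, was 9.99 in GFP and 9.70, 9.35 and 9.61 in the replicates, lower by -0.43 (SE 0.17). Its relative Degs2 was lower by -0.35 (SE 0.11) from a dim 3.43. Elovl2 (0.08, SE 0.09), Fads6 (0.0020, SE 0.17) and Scd3 stayed below the median gene on every array.

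Partner enzymes lay on both sides of GFP, where 56.1% of all genes were higher by their means. The other steps of the elongation cycle (6 genes) had 4 higher and 2 lower, with a median of 0.13, which was 0.080 without replicate 2 and 0.026 with the mean of probe sets. Tecr, the reductase that ends each cycle, was higher by 0.29 (SE 0.15) and the dehydratase Hacd4 by 0.43 (SE 0.23), each in all 3 arrays, while Hacd1 was at -0.18 (SE 0.15) and Hacd2 at 0.16 (SE 0.19). Among 6 genes that hand electrons to desaturases, 3 were higher and 3 lower (median -0.02). Cytochrome b5, Cyb5a, was 8.06 in GFP and 8.96, 8.39 and 8.41 in the replicates, higher by 0.53 (SE 0.28), with replicate 1 apart as for Fads3. Cyb5b was higher by 0.36 (SE 0.17), the reductase Cyb5r3 was at -0.15 (SE 0.17), and Cyb5r2 was lower by -0.30 (SE 0.10) from a dim 3.78. Of 5 ceramide synthases, which use the products of Elovl1 and Elovl4, 3 were higher and 2 lower, between -0.08 and 0.10. In these 3 lists 0 genes had a limma adjusted p under 0.05, and 1 of 17 (Cyb5r2, lower) had an unadjusted p under 0.05, against 6.5% of all genes lower.

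Of 10 genes listed under palmitate synthesis, 9 were higher, 8 of them in all 3 arrays, against 56.1% and 32.5% of all genes. The list median was 0.35, and 0.22 with the mean of probe sets. The list was not limited to enzymes that make palmitate, and it held Mcat (0.23, SE 0.25) and Oxsm (-0.22, SE 0.15). Acss2, which makes acetyl-CoA from acetate, was 4.19 in GFP and 5.80, 6.02 and 5.38 in the replicates (1.54, SE 0.28), although its probe sets ran from 0.11 to 1.54. Fatty acid synthase, Fasn, was higher by 0.70 (SE 0.18), Acly by 0.52 (SE 0.11, probe sets -0.12 to 0.52) and Acaca by 0.48 (SE 0.14). Limma's adjusted p was between 0.227 and 0.766 over these 10 genes.

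Among 16 regulators and targets of SREBP and LXR, 12 were higher and 4 lower, with a median of 0.23, and 10 lay above GFP in all 3 arrays, against 56.1% of all genes higher and 32.5% above in all 3. Srebf1, which encodes SREBP-1, was 7.35 in GFP and 7.76, 7.87 and 7.75 in the replicates, higher by 0.44 (SE 0.12). The SREBP targets Hmgcs1 (1.31, SE 0.21, probe sets 0.36 to 1.31), Sqle (0.997, SE 0.24) and Stard4 (0.63, SE 0.16) were higher in all 3 arrays. So was the LXR gene Nr1h3 (0.50, SE 0.14). The LXR targets Abca1 (-0.24, SE 0.36), Abcg1 (-0.18, SE 0.18) and Mylip (0.13, SE 0.21) each had arrays on both sides of GFP. Abca1 was dim, at 2.86 in GFP, with probe sets from -0.24 to 0.09. Lpcat3 was at 0.08 (SE 0.12). Insig2 was lower in all 3 arrays, by -0.46 (SE 0.16), while Insig1 was higher in all 3, by 1.18 (SE 0.57). The list's adjusted p ran from 0.207 to 0.969 with limma, 0 genes passing, and 5 higher and 1 lower gene had an unadjusted p under 0.05, against 7.46% and 6.5% of all genes.

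**Figure D5:**
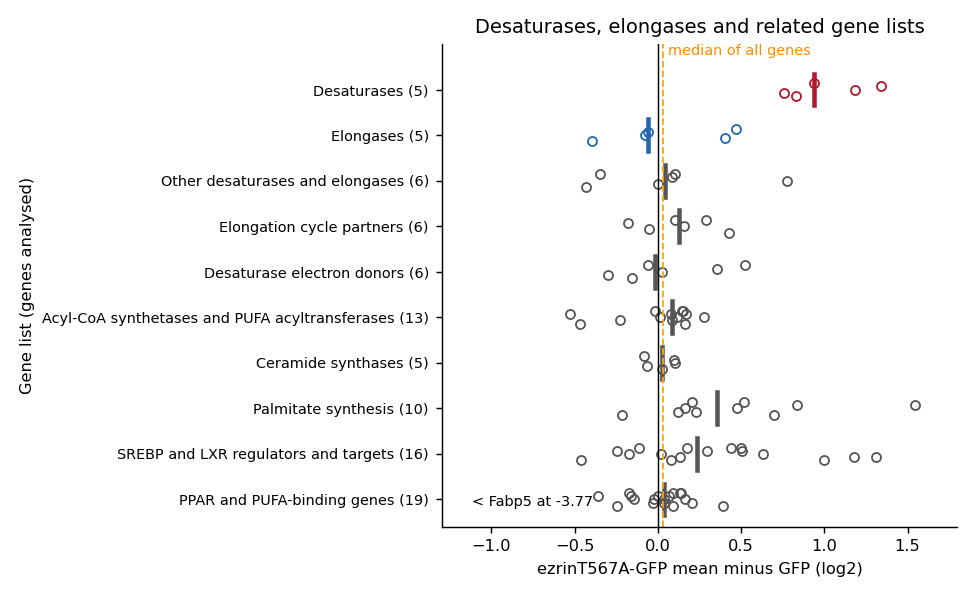
Difference (ezrinT567A-GFP mean minus GFP, log2) of each gene in the desaturases, the elongases and the related lists, with the number of genes analysed in parentheses; thick bars are list medians and the dashed line is the median of all genes. Desaturases lie at 0.76 to 1.34 with a median of 0.94, and the palmitate synthesis list has a median of 0.35. Fabp5, at -3.77, lies outside the axis.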

How the data were processed

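The authors deposited log2 expression values per probe set for 4 one-colour arrays, processed with RMA per the submitters' processing notes; that the scale is log2 was read from the value range. RMA equalises the distributions of the arrays, so a shift of all genes would not show, and no detection calls were used here. Of 45101 probe sets, 34945 named 1 gene in the platform annotation, 932 named several and 9160 were not listed, 64 controls aside. The fit over 18193 genes used limma (version 3.58.1, R version 4.3.3; lmFit, eBayes with a mean trend, 2 residual and 2.23 prior degrees of freedom), two-sided, with Benjamini-Hochberg adjustment over all genes and a threshold of 0.05. With 1 GFP array, its spread was taken to equal that of ezrinT567A-GFP. No filter on dim genes was used, and the number of arrays limits the precision. SE is limma's moderated standard error and intervals are 95% from the same fit. Scripts were tested on simulated data.

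The members and gene lists were chosen with earlier results of these data known. Named genes were all members, the other genes of the enzyme family, and up to 4 per list with the smallest p. Outside that rule are neighbouring genes, markers, Ezr, Nr1h3, Insig1, Insig2, Mcat, Oxsm and the LXR targets Abca1, Abcg1, Mylip and Lpcat3. Chromosomes and gene order came from a GRCm38.p6 gene table. Alternatives were quantile normalization, centring, the mean of probe sets, _at probe sets alone, no dim genes, no trend, a robust prior, treat at 1.2-fold and leaving out each replicate. Of the listed genes, those without a single-gene probe set here were not analysed. Python 3.11.15 with matplotlib 3.10.9 drew the figures.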

Additional observations from a re-analysis of the deposited data

Results flagged for a closer look

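Hybridization spike-in controls, which belong to no comparison above, were 1.21 higher on average in ezrinT567A-GFP than in GFP (log2, 18 probe sets), and were higher in all 3 arrays. The labelling spike-ins averaged 5.47 with GFP alone, and between 5.20 and 5.60 with ezrinT567A-GFP, and so lay on both sides of GFP. The part of the spike-ins in the desaturase differences was not tested.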

How the results depend on the processing

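Quantile normalization, centring and the mean of probe sets were the settings that changed the desaturase values on single arrays. All 5 desaturases lay above GFP in every array under each, with the lowest difference at 0.74, 0.74 and 0.53. The highest difference among the 5 member elongases there was 0.49, 0.46 and 0.38. Centring moves all genes of an array alike and took Scd1 only from 0.935 to 0.92. The smallest desaturase difference in 1 array was 0.60, so centring could hardly move a side. RMA had already equalised the arrays, so quantile normalization had little room to do so. The other settings changed the test, dropped elongase probe sets or dropped an array, and could not change the count of desaturases above GFP. Dropping an array did move mean differences, that of Fads3 being 0.62 to 0.94 against 0.83 in the main fit. Limma's count over all genes, 0 in the main fit, was 36 after quantile normalization, 6 after centring, 6 with the mean of probe sets, 3 without dim genes and 9 with a robust prior. Quantile normalization also gave 1 call among the members, Scd2 (1.35, adjusted p = 0.022, against 0.056 to 0.558 elsewhere), and 2 among their probe sets; the cause was not tested. With _at probe sets alone 1 elongase lay above GFP in every array, because Elovl1 has none of that kind, and with the mean of probe sets 1 member was at least 2-fold higher. Without dim genes Elovl7 was left out, the elongase median became 0.17 instead of -0.06 and the gap between the medians of mean differences became 0.77 instead of 0.997. Leaving out 1 replicate gave 0.94 to 1.04 for the same gap, on both sides of 0.997.

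Small list medians changed sign. That of the other desaturases and elongases was -0.021 with the mean of probe sets and -0.030 to 0.070 without 1 replicate, and without dim genes the list held Degs1 alone, at -0.43. Electron donors had 0.023 without dim genes and -0.205 to 0.078 without 1 replicate, ceramide synthases -0.066 and -0.032 to 0.089, and PPAR and PUFA-binding genes -0.0036 to 0.0090 without 1 replicate. The cause of the other changes was not tested. No paired analysis was possible because there was only 1 GFP array. Values near the bottom of the scale, such as those of Elovl7, are limited by signal over background, which was not analysed here.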

Other observations

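Genes that bind or use polyunsaturated fatty acids were mixed. Of 19 PPAR and PUFA-binding genes, 11 were higher and 8 lower (median 0.04), where 56.1% of all genes were higher. Fabp5, a fatty acid binding protein abundant in skin epithelium, was 6.76 in GFP and 2.32, 3.71 and 2.93 in the replicates, lower by -3.77 (SE 0.56, limma adjusted p = 0.198), and of 18193 genes 1 had a lower difference. Fabp5 was thus lower beside the keratinocyte markers of the report, whose part in it was not tested. Pla2g4a, which releases arachidonate from phospholipid, was lower by -0.36 (SE 0.12), Rxrb was at -0.25 (SE 0.13) and Alox12, dim at 2.47 in GFP, at 0.39 (SE 0.23).

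Of 13 acyl-CoA synthetases and acyltransferases, which load fatty acids onto CoA and phospholipids, 9 were higher and 4 lower (median 0.09). Among all genes 56.1% were higher. The acyltransferase genes Lpgat1 (8.67 in GFP and 8.13, 8.14 and 8.15 in the replicates) and Lpcat1 (7.93 in GFP and 7.33, 7.45 and 7.60) were lower by -0.53 (SE 0.10) and -0.47 (SE 0.15), each with probe sets on both sides of 0 (-1.17 to 0.08 and -0.91 to 0.05). Acsl6, dim at 3.55 in GFP, was at -0.23 (SE 0.10) and Agpat3 at 0.27 (SE 0.13), also with probe sets on both sides of 0 (-0.23 to 0.15 and -0.18 to 0.27). In both lists 0 genes had a limma adjusted p under 0.05, and 4 of 32 had an unadjusted p under 0.05, all lower, against 6.5% of all genes lower and 7.46% higher.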
